A study of Rattus norvegicus with 16 samples.

Results

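The untreated myelinating culture is a mixed culture of the rat central nervous system in which dissociated spinal cord cells form myelin around axons on top of an astrocyte layer. It was described here at baseline, from the 4 arrays labelled Control of the 16 arrays in the series. The astrocyte layer was grown from neurospheres of the striatum of Sprague-Dawley rats at postnatal day 1, and the cells plated on it came from spinal cords of Sprague-Dawley embryos at E15.5 (embryonic day), cleared of meninges. The sample descriptions list 10% fetal bovine serum and 25% horse serum among the culture media. The paper states that the neurospheres were grown with EGF and that insulin was later left out of the medium. RNA was taken at 19 days in vitro. The Control arrays hold RNA of untreated cultures, and no comparison with a treated group is made. The arrays were Affymetrix Rat Gene 2.1 ST, which probe a gene along its transcript, and a level is the authors' normalised log2 value. One study source calls such arrays independent cultures and another calls them technical replicates, so the spread between the 4 values of a gene may be technical. Values are given in the order of replicates 1 to 4.

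Myelin is the membrane that oligodendrocytes wrap around axons, and in these cultures its formation requires neurons that supply axons, oligodendrocyte progenitors that divide and mature, and astrocytes that support both. Sodium channels gather at the gaps between myelin segments, the nodes of Ranvier, and potassium channels gather beside them. Microglia, the resident macrophages of nervous tissue, colonise the cord before birth and can be carried over when it is dissociated.

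A gene was called above background when its lowest array exceeded 5.80, the 95th percentile of the means of 246 olfactory, vomeronasal and taste receptor genes, which neural cells of the cord and striatum are not known to use as a group. These receptor genes had a median of 4.45, and 7 of the 246 still lay above the threshold on every array. Of the 14311 other genes with a single symbol, 8862 were above background, which is 61.9% and is the share against which each gene group below is to be read. The genes above background had a median level of 9.15, and those not above had 4.36. The call misses genes: Rpl5, Rpl26, Rps9 and 3 further ribosomal proteins, which every cell makes, were not above background, while 39 of 45 measured ribosomal protein genes were. A gene that was not above background is therefore not shown to be silent. Levels of different genes depend on their probes and are not set against each other. In RNA from a whole culture, fewer cells of a type and less RNA per cell cannot be told apart.

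The culture carried the markers of myelinating oligodendrocytes, of their progenitors, of astrocytes, of neurons and of microglia on every array. Mog, a protein of the outermost myelin surface that marks mature oligodendrocytes, was measured at 9.57, 9.55, 9.41 and 9.45. Opalin, a membrane glycoprotein of oligodendrocytes, was at 8.82, 8.87, 8.92 and 8.87. For both genes the 4 arrays lay close together and at least 3 log2 units above the threshold. Olig2, the transcription factor that marks the oligodendrocyte lineage, was at 9.70, 9.70, 9.70 and 9.73, and Kcnj10, the inward rectifier potassium channel of astrocytes and oligodendrocytes, was at 11.13, 11.26, 11.24 and 11.06. Csf1r, the receptor on which microglia depend for survival, gave 10.33, 10.36, 10.53 and 10.40. Nefl, the neurofilament light chain of axons, gave 12.48, 12.44, 12.46 and 12.45 on the higher of its 2 clusters, and the mean over both clusters was 10.46. No array stood apart for any of these markers, and the widest range among the 6 genes was 0.21, for Csf1r.

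**Figure D1:**
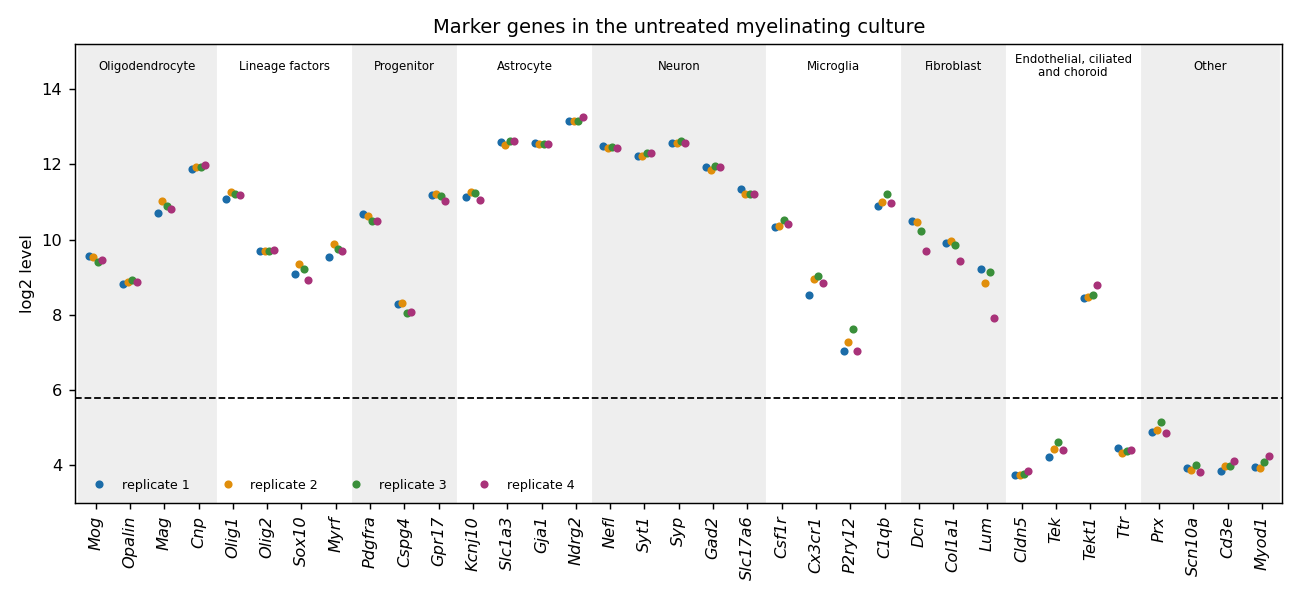
Log2 level of 35 marker genes on the 4 untreated arrays, 1 point per array, grouped by the cell type they mark, with the background threshold of 5.80 as a dashed line. The markers of oligodendrocytes, progenitors, astrocytes, neurons, microglia and fibroblasts shown lie above the line, while Cldn5, Tek, Ttr, Prx, Scn10a, Cd3e and Myod1 lie below it.

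The promoter windows of 4 of these markers, those matched to a single RefSeq window (Mog and Nefl were not), are shown for their CpG content, a property that went with the background call across the genes measured. They run from 250 bases before to 50 after the transcript start in RefSeq on build GRCr8 and are written 5′ to 3′ on the strand of the gene, with each CpG in capitals.
Olig2: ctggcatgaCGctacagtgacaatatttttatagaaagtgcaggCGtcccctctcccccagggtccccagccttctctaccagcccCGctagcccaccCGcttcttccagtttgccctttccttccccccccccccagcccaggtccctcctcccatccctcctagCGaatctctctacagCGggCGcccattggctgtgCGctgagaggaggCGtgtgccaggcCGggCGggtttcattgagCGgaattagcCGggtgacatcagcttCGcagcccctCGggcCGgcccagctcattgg
Kcnj10: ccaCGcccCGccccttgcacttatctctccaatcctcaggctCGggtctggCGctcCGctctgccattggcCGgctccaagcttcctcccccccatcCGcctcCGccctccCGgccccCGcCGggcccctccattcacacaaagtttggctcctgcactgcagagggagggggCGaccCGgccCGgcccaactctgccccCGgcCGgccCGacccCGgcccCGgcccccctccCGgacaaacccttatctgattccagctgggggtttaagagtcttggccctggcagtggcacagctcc
Opalin: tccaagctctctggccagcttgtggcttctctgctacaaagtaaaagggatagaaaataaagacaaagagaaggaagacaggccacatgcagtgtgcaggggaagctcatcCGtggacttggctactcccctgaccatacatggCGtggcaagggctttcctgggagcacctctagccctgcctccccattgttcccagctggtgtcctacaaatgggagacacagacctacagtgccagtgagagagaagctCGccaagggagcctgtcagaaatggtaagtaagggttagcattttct
Csf1r: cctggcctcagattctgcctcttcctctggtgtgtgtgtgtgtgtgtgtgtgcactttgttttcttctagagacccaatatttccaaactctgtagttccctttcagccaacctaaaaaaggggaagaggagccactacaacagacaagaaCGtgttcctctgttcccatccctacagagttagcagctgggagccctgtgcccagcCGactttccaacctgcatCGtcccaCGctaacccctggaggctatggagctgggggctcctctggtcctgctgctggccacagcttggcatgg
The Olig2 window (chr11:43961335-43961634, plus strand) holds 16 CpGs and the Kcnj10 window (chr13:87334260-87334559, plus strand) holds 20. The Opalin window (chr1:249858141-249858440, minus strand) holds 3 and the Csf1r window (chr18:56834129-56834428, plus strand) holds 4. Opalin and Csf1r thus lay above background from windows with few CpGs, against a median of 21 among all genes above background.

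Of 24 measured genes of mature oligodendrocytes, 19 were above background. The list had a median level of 9.38 and all genes had 7.51, which describes different probes and is not a comparison of amounts. Cnp, an enzyme of the myelin cytoplasm, was at 11.89, 11.93, 11.94 and 11.99, and Mag, the adhesion protein of the myelin surface that faces the axon, was at 10.70, 11.03, 10.89 and 10.83. Cldn11, the tight junction protein that seals the myelin layers, was at 11.29 ± 0.23 (SD, n = 4). These levels place structural myelin genes far above background on all 4 arrays. The enzymes of myelin galactolipids were present too, with Ugt8, which makes galactosylceramide, at 10.58 ± 0.16 and Fa2h, which hydroxylates its fatty acid, at 9.51 ± 0.07. Gal3st1, which sulfates the same lipid, was not above background at 3.74 ± 0.09, nor was Gjb1, the connexin of myelin gap junctions, at 4.15 ± 0.12. Klk6, Ninj2 and Ppp1r14a completed the 5 members not above, and of these Ppp1r14a passed on 3 arrays at 6.28, 6.04 and 5.95 but not on replicate 1 at 5.74.

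Among 15 transcription factors of the oligodendrocyte lineage 12 were above background. Olig1 was at 11.19 ± 0.08, Sox10, required through the lineage, was at 9.15 ± 0.19, and Myrf, the activator of myelin genes in differentiating cells, was at 9.53, 9.89, 9.76 and 9.70. Nkx6-1, Nkx6-2 and Sox17 were not above background. Progenitor markers were measured beside those of mature cells, with 13 of 15 above background and a median level of 10.50. Pdgfra, the receptor through which progenitors divide, was at 10.69, 10.63, 10.50 and 10.49. Cspg4, the NG2 proteoglycan, was at 8.18 ± 0.14, and Gpr17, a receptor of cells that have committed to differentiate, was at 11.19, 11.22, 11.16 and 11.02. All stages of the lineage that these markers represent were thus read on each array. Pdgfra and Cspg4 are also used by fibroblasts and pericytes, whose genes were measured as well.

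Of 27 measured astrocyte genes 25 were above background, and the list had a median level of 11.53. Slc1a3, the glutamate transporter GLAST, was at 12.61, 12.52, 12.61 and 12.61, and Gja1, the connexin of astrocyte gap junctions, was at 12.58, 12.53, 12.55 and 12.54. Ndrg2, a marker of mature astrocytes, was at 13.17 ± 0.05, and Aldoc, an astrocyte aldolase, was at 13.11 ± 0.04. Fabp7, a fatty acid binding protein of radial glia and young astrocytes, was at 13.00 ± 0.02. Apart from Gjb6, at 6.26, 7.25, 7.37 and 6.57, the astrocyte genes differed little between arrays, with a median SD of 0.06. Dio2, which activates thyroid hormone, and Grin2c, an NMDA receptor subunit, were not above background on all arrays, and Dio2 ranged from 5.09 on replicate 3 to 6.78 on replicate 4. Of the 26 genes that reactive astrocytes raise after injury, 20 were above background. Vim, the intermediate filament vimentin that fibroblasts and microglia also make, was at 13.28 ± 0.06 and Timp1 at 11.15 ± 0.19, whereas Lcn2, a secreted lipocalin, was at 7.34 ± 0.22 and Ptx3 was not above background at 5.00 ± 0.20.

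All 20 pan-neuronal genes were above background, with a list median of 11.43. Eno2, the neuronal enolase, was at 12.59 ± 0.03, and the vesicle proteins Syp and Syt1 were at 12.59 ± 0.02 and 12.27 ± 0.04. Nefm, the medium neurofilament chain, was at 11.30, 11.35, 11.34 and 11.24. The neuronal genes differed little between arrays, with a median SD of 0.05 against 0.08 over all genes above background.

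The transmitters of these neurons were fewer, and 6 of 16 genes of transmitter synthesis and vesicle loading were above background. Gad2, which makes GABA, was at 11.94, 11.84, 11.96 and 11.93, and Slc32a1, which loads GABA and glycine into vesicles, was at 10.17, 10.14, 10.20 and 10.18. Slc17a6, the vesicular glutamate transporter VGLUT2 of cord excitatory neurons, was at 11.35, 11.22, 11.22 and 11.22. Inhibitory and excitatory neurons were thus both read on every array. Slc17a7, the VGLUT1 gene of cortex, was not above background at 4.24 ± 0.15. The choline transporter Slc5a7 was above at 6.76 ± 0.14, but the vesicular acetylcholine transporter Slc18a3 was not, at 5.31 ± 0.09. The genes of serotonin neurons (Tph2, Fev, Slc6a4) and of noradrenaline and dopamine uptake or synthesis (Dbh, Slc6a3, Slc18a2) were also not above, although Th, tyrosine hydroxylase, was at 7.40, 7.10, 7.35 and 7.08.

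Listed transcription factors of spinal neuron classes were above background in 25 of 39 cases (64.1%, near the 61.9% of all genes). Nfia, Nfib and Lhx2 were among the 6 highest members of this list. Lhx2 is also in the list of forebrain and midbrain genes. Pax2, of inhibitory interneurons, was at 9.17, 9.12, 9.18 and 9.12, and Lbx1, of dorsal interneurons, was at 8.94, 8.50, 8.68 and 8.56. Lhx5, another factor of dorsal inhibitory cells, was at 8.42 ± 0.15, and Drgx, of dorsal excitatory cells and sensory neurons, was at 8.52 ± 0.06. The motor neuron factors Isl1 and Isl2 were not above background, at 4.26 ± 0.14 and 4.10 ± 0.10. Factors of ventral interneurons were mixed. Evx1 at 4.37 ± 0.05 and Sim1 at 4.03 ± 0.10 were not above. Of the Gata pair that marks ventral V2b interneurons, Gata3 was above at 6.66 ± 0.19 and Gata2 was not at 5.21 ± 0.15. Of 26 genes that pattern the cord from dorsal to ventral 10 were above background, among them Olig2 and the bone morphogenetic protein genes Bmp4 and Bmp7, while Shh, Pax3, Msx1 and Wnt1 were not.

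Position along the body axis was read from the Hox genes, which neurons keep from their place of origin in the hindbrain and cord. Of 27 measured Hox genes 20 were above background. Hoxa5, of the cervical cord, was at 11.97 ± 0.05 (range 11.91 to 12.03), Hoxb8 was at 11.21, 11.24, 11.28 and 11.19, and Hoxc8, of the lower cervical and thoracic cord, was at 11.33, 11.16, 11.17 and 11.10. Hoxc9 at 8.50 ± 0.11 and Hoxd10, of the lumbar cord, at 8.47 ± 0.09 were above as well, as was Hoxc12 at 8.16 ± 0.06. The 7 genes not above were Hoxb1 and Hoxd1 at one end of the clusters and Hoxa11, Hoxa13, Hoxb13, Hoxd12 and Hoxd13 at the other, and Hoxa11 lay on both sides of the threshold at 5.74, 5.94, 5.73 and 5.89. Paralogs 2 to 10 were thus above in each case measured, and of the later ones Hoxc12 alone was.

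**Figure D2:**
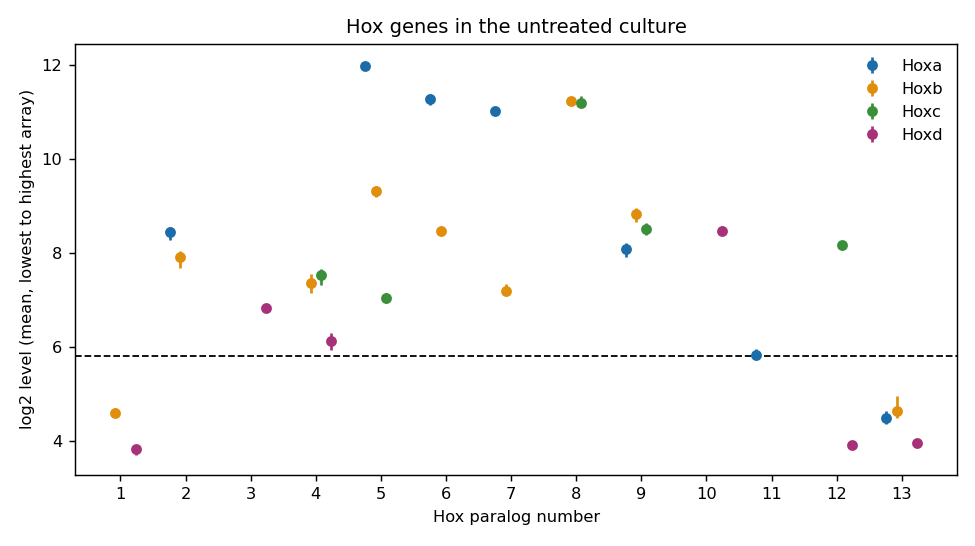
Log2 mean over the 4 untreated arrays of the 27 measured Hox genes by paralog number, with the lowest and highest array as bars, coloured by Hox cluster, and the background threshold of 5.80 as a dashed line. The genes of paralogs 2 to 10 lie above the line on all arrays and, of paralogs 1 and 11 to 13, only Hoxc12 at 8.16. The mean of Hoxa11, at 5.83, lies just above the line, but its bar crosses it.

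Genes of forebrain position were measured in the same RNA, and 22 of 36 forebrain and midbrain genes were above background, which is 61.1% and no more than the 61.9% of all genes. Dlx1, a factor of striatal and other ventral forebrain progenitors and interneurons, was at 10.05, 10.34, 10.08 and 10.20. Otx1 was at 8.14, 8.34, 8.22 and 8.38, and Six3 was at 7.94, 7.87, 7.77 and 8.07. These 3 factors were above background on all 4 arrays. Drd2, the D2 dopamine receptor, was at 9.55 ± 0.09, while Drd1 and Adora2a, receptors of striatal projection neurons, were not above at 4.56 ± 0.14 and 5.27 ± 0.06. Otx2, of forebrain and midbrain, was above as well. En2, of midbrain and cerebellum, was not above at 5.63 ± 0.06 but passed with the 90th percentile as threshold. The layer is of striatal and the plated cells are of spinal origin, and which of them held a given transcript was not tested.

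Microglia genes were above background in 40 of 45 cases. The complement genes C1qa and C1qb, which microglia supply in nervous tissue, were at 9.65 ± 0.20 and 11.01 ± 0.14. Cx3cr1, the fractalkine receptor, was at 8.54, 8.94, 9.03 and 8.84, and P2ry12, a purine receptor of resting microglia, was at 7.05, 7.28, 7.63 and 7.05. Replicate 3 was the highest and replicate 1 the lowest or tied for it in both genes. Tmem119, held to separate microglia from other macrophages, lay just above the threshold at 6.06, 5.97, 6.06 and 5.98, and Itgam lay just around it at 5.69, 6.03, 6.04 and 5.99. Genes that activated microglia raise lay on both sides of the threshold. Cst7 and Gpr84 were not above at 4.16 ± 0.06 and 4.11 ± 0.03. Gpnmb and Lgals3 were above and among the 6 highest members of the microglia list. Genes of border macrophages and monocytes were above background in 11 of 19 cases (57.9%, under the 61.9% of all genes). Among those above, Lyz2 was at 12.02 ± 0.25, F13a1 at 9.20 ± 0.17, Folr2 at 8.65 ± 0.22 and Lyve1 at 8.24 ± 0.16. Fn1 was above too and is also in the fibroblast list. Ccr2, S100a8 and S100a9, of monocytes and neutrophils, were not above. Of 27 lymphocyte and mast cell genes 2 were above, Cd4 at 8.28 ± 0.20 and Kit at 7.72 ± 0.19. Rat macrophages and microglia carry Cd4 and neural cells carry Kit, and the T cell gene Cd3e was at 3.98 ± 0.11.

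Fibroblast and meningeal genes were above background in 31 of 37 cases, although the cords had been cleared of meninges. Dcn, the matrix proteoglycan decorin, was at 10.50, 10.46, 10.24 and 9.71. Col1a1, a chain of fibrillar collagen, was at 9.91, 9.96, 9.87 and 9.42, and Lum, the proteoglycan lumican, was at 9.21, 8.85, 9.13 and 7.91. Replicate 4 was the lowest array for all 3 genes, by 1.30 log2 units from the highest in the case of Lum. Ogn at 11.99 ± 0.23 and Ptgds, a prostaglandin synthase of meninges that oligodendrocytes also make, at 11.65 ± 0.27 were above background as well. Pericyte and smooth muscle genes were mixed, with 11 of 21 above (52.4%, under the 61.9% of all genes). Pdgfrb was at 8.44 ± 0.15 and Tagln at 10.47 ± 0.10. Kcnj8 and Abcc9, the channel subunits that mark brain pericytes, were not above at 5.13 ± 0.11 and 4.36 ± 0.10.

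Endothelial genes were above background in 9 of 34 cases, which is 26.5% against the 61.9% over all genes. Cldn5, the tight junction protein of the blood-brain barrier, was at 3.74, 3.74, 3.76 and 3.85, and Tek, the angiopoietin receptor, was at 4.22, 4.44, 4.61 and 4.40. Tie1 and Vwf were likewise not above. Several of the 9 above are used by other cells, such as Slc2a1, the glucose transporter GLUT1, at 11.72 ± 0.12. Cdh5, the cadherin of endothelial junctions, was the exception among defining genes at 8.43, 9.48, 9.25 and 8.83. Listed genes of ependyma, choroid plexus and motile cilia were above in 21 of 27 cases (77.8%, against 61.9% of all genes). Enkur was at 9.79, 10.05, 9.96 and 10.21 and Tekt1, a filament protein of the axoneme, at 8.44, 8.46, 8.53 and 8.80. Ttr, the transthyretin of choroid plexus, was not above at 4.39 ± 0.05. Aqp1, Slc4a5, Mcidas, Ak8 and Dnai2 completed the 6 members not above. Schwann cell and neural crest genes were above in 13 of 18 cases (72.2%). Several of these, such as Sox10, Mal and Erbb3, belong to oligodendrocytes as well. Pmp2, Scn7a, Itgb4, Cdh6, L1cam and Ngfr were above too, and which cells held them was not tested. Prx, the periaxin of Schwann cell myelin, and Pou3f1 were not above, at 4.96 ± 0.13 and 4.77 ± 0.02, while Egr2, the Schwann cell myelin factor that is also an immediate early gene, was at 6.17 ± 0.14. Of 19 genes of dorsal root ganglion neurons 10 were above (52.6%, under the share of all genes), among them Ret, Gfra1, Gfra2, Cbln2, Tac1 and Prph. The channels of pain fibres Scn10a, Scn11a and Trpv1 were not above. Sst, the peptide somatostatin, was above at 11.71 ± 0.04 but is made by cord interneurons too. None of the 24 skeletal muscle and liver genes was above background, and the closest was Casq1 at 5.85, 5.94, 5.67 and 5.89, which passed when replicate 3 was left out.

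**Figure D3:**
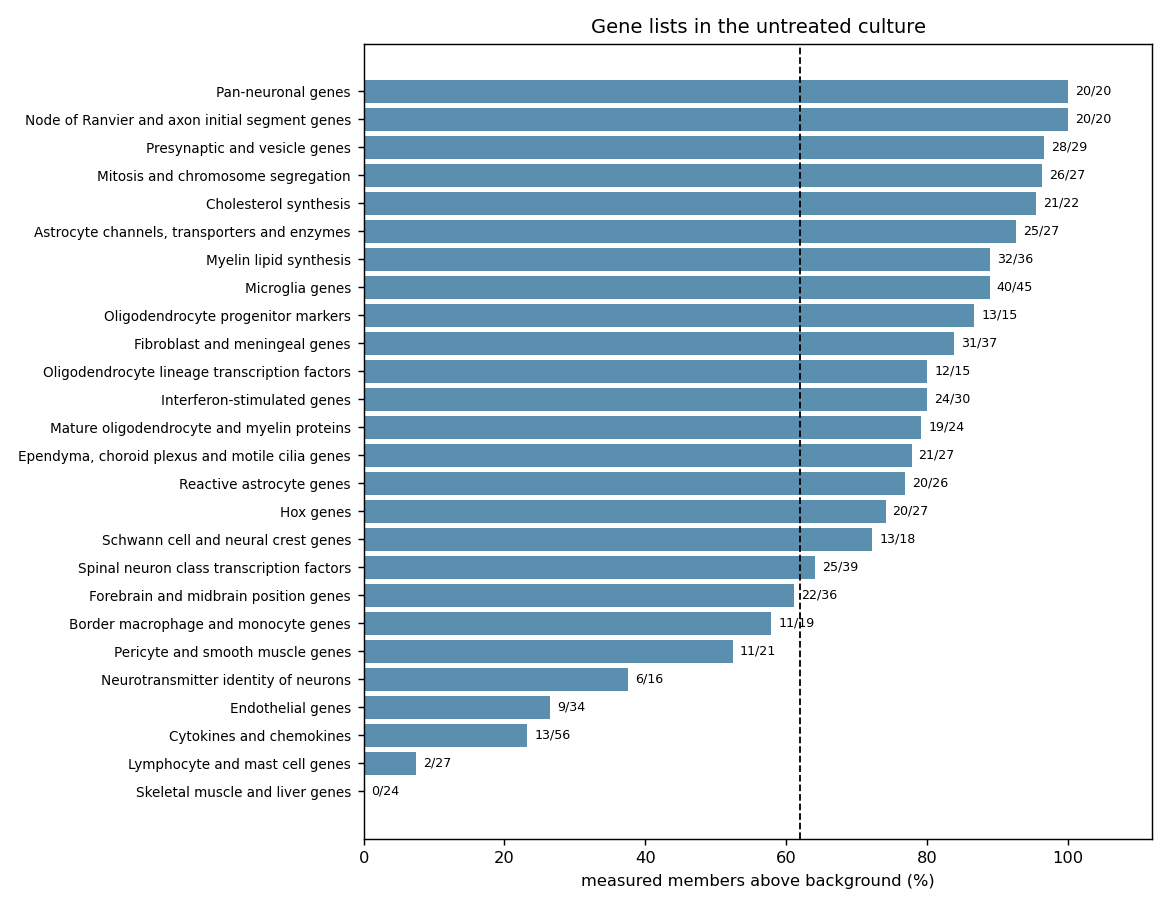
Percent of the measured members of 26 gene lists that were above background in the untreated culture, with the number above and measured beside each bar and the 61.9% of all genes as a dashed line. Pan-neuronal and node of Ranvier genes are at 100%, and lymphocyte, endothelial, muscle and liver genes lie far under the line.

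Genes of the node of Ranvier and the axon initial segment organise the axon under myelin. Of 39 listed genes only 20 had a single-symbol cluster, and these 20 were above background, or 19 with the 99th percentile as threshold. Cntnap1, the Caspr protein of the junction between myelin and axon, was at 10.24, 10.19, 10.23 and 10.24. Its partner Cntn1 was at 12.27 ± 0.08. The potassium channels Kcna1 and Kcna2, which lie beside the node under the myelin, were at 10.70 ± 0.04 and 11.06 ± 0.08, and Gldn, the gliomedin of peripheral nodes, was at 7.99, 7.86, 7.64 and 7.35.

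Synaptic genes were as widely measured, with 28 of 29 presynaptic and 19 of 20 postsynaptic genes above background. Gphn, the scaffold of inhibitory synapses, was at 12.05, 11.94, 11.98 and 12.01. Of 17 subunits and partners of AMPA, kainate and NMDA receptors 15 were above, among them Grin1, the obligatory NMDA subunit, at 10.64 ± 0.02 and Gria3 at 10.29 ± 0.05, and Grin3b was not at 4.03 ± 0.15. Of 13 GABA-A and glycine receptor subunits 9 were above, with Gabra3 at 12.11 ± 0.06, Gabra5 at 11.33 ± 0.03 and the adult glycine receptor subunit Glra1 at 10.59, 10.50, 10.59 and 10.46. The 4 not above were Gabrd and the rho subunits Gabrr1, Gabrr2 and Gabrr3. Acetylcholine receptors were above in 7 of 18 cases, among them Chrnb2 at 10.57 ± 0.04 and Chrm2 at 10.28 ± 0.16, and the muscle subunits Chrna1 and Chrng were not. Monoamine receptors were above in 13 of 25 cases (52.0%, under the 61.9% of all genes). Those above included the serotonin receptors Htr2c at 10.46 ± 0.13 and Htr2a at 10.26 ± 0.07. Peptide precursors were above in 21 of 33 cases (63.6%, near the share of all genes). Npy was at 10.48 ± 0.10 and Tac1, the substance P precursor, at 9.37 ± 0.05, while the hypothalamic peptides Oxt, Avp and Pomc were not above.

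Receptors and ligands through which the glia could be addressed were read next. Of 46 listed genes of FGF ligands, receptors and co-receptors 33 were measured. Of these, 20 were above background (60.6%, near the 61.9% of all genes). Fgf12 at 11.72 ± 0.04 and Fgf14 at 10.53 ± 0.09, which stay inside neurons and bind sodium channels, were above, as were the secreted ligands Fgf9 at 8.24 ± 0.16 and Fgf1 at 7.80 ± 0.14. The heparan sulfate carriers Sdc2 and Sdc3, co-receptors of FGFs, were at 11.59 ± 0.08 and 11.38 ± 0.05. Fgfr4 was not above background, at 5.06, 5.07, 4.76 and 4.88. The decoy receptor Fgfrl1 was at 10.33 ± 0.13. Levels of Fgfr1, Fgfr2 and Fgfr3 are not reported here, so the FGF receptors as a group are not described. Feedback genes that ERK signalling induces were also above without added FGF, in cultures whose media included serum. Spry2 was at 9.40 ± 0.07, Dusp6 at 8.43 ± 0.14 and Etv5 at 8.49 ± 0.11. The part of the media in these levels was not tested. Of 33 immediate early and feedback genes 27 were above, and Npas4, Fosb, Fosl1, Maff, Klf2 and Egr4 were not.

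Other growth factor systems were read next to the 61.9% of all genes. PDGF, VEGF and HGF genes were above in 19 of 24 cases (79.2%), with Pdgfa, the ligand of Pdgfra, at 9.64 ± 0.03, Pdgfc at 11.02 ± 0.07 and Hgf at 9.78 ± 0.03. Both ligands of Csf1r were above, Csf1 at 9.72 ± 0.14 and Il34 at 8.14 ± 0.07. The ErbB receptors Egfr, Erbb2 and Erbb3 were at 9.48 ± 0.07, 7.18 ± 0.13 and 8.04 ± 0.15, and the ligands Areg, Ereg and Epgn were not above. Notch genes were above in 15 of 20 cases (75.0%), including Notch1 at 9.78 ± 0.11, which restrains differentiation of progenitors, its ligand Dll1 at 8.31 ± 0.06 and the target Hes5 at 8.19, 8.14, 7.60 and 7.87. BMP and TGF-beta genes were above in 30 of 42 (71.4%), with Bmp4 at 9.18 ± 0.18 and Bmp7 at 9.40 ± 0.31. Wnt genes were above in 37 of 56 (66.1%, near the share of all genes), with the ligand Wnt7a at 8.67 ± 0.11, the feedback target Axin2 at 8.25 ± 0.20 and the secreted antagonists Sfrp1 and Dkk3 at 10.84 ± 0.15 and 10.82 ± 0.12. Most of the Wnt genes not above were ligands, among them Wnt1, Wnt3, Wnt11 and Wnt10b. Guidance genes were above in 46 of 48 cases, and Robo3 and Epha1 were the pair that was not. Among steroid, thyroid and retinoid genes 19 of 28 were above (67.9%, also near that share), with the glucocorticoid receptor Nr3c1 at 9.67 ± 0.08.

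Of 56 cytokine and chemokine genes 13 were above background, which is 23.2%, with Cx3cl1, the fractalkine that neurons present to microglia, at 11.73, 11.61, 11.53 and 11.60 and Ccl2, a chemokine that draws monocytes, at 9.96, 10.33, 10.34 and 10.68. Tnf, Il1b and Il6 were not above, at 4.96 ± 0.19, 4.23 ± 0.11 and 4.81 ± 0.22. Of 33 cytokine, chemokine and Toll-like receptor genes 22 were above (66.7%, near the 61.9% of all genes). Among them were Tnfrsf1a and both chains of the interferon gamma receptor. Interferon-stimulated genes were above in 24 of 30 cases (80.0%), with Ifitm3 at 10.04 ± 0.09, Mx1 at 7.15, 7.99, 7.89 and 7.85 and Isg15 at 5.89, 6.71, 6.28 and 6.47. Replicate 1 was the lowest for Mx1 and Isg15. The 6 interferon-stimulated genes not above were Ifit3, Oas1k, Oas2, Oasl, Zbp1 and Dhx58. B2m, the light chain of class I molecules, was at 12.73 ± 0.07, while the class II chains RT1-Da, RT1-Ba, RT1-Bb and RT1-Db1 were not above although the class II chaperones Cd74 and RT1-DMa were, at 7.03 ± 0.66 and 10.56 ± 0.14. Complement genes were above in 12 of 22 cases (54.5%, under the share of all genes). C3 was at 8.89, 9.60, 9.82 and 9.32, and none of C5, C8a, C8b and C9 of the terminal pathway was above.

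Metabolic genes that myelin requires were nearly all above background. Cholesterol synthesis counted 21 of 22, with Msmo1 at 12.23 ± 0.08 and Sqle, the squalene epoxidase, at 10.46 ± 0.04. The synthesis of other myelin lipids counted 32 of 36, with the desaturases Scd2 at 13.06 ± 0.02 and Fads2 at 12.61 ± 0.08. Oxidative phosphorylation counted 55 of 59. Genes of cell division were still read after 19 days, while division itself was not measured. Above background were 26 of 27 mitosis genes (96.3%) and 33 of 37 genes of DNA replication (89.2%), against 61.9% of all genes. The replication genes not above were Cdc6, Cdt1, Gins2 and Pole2, and the replication count ran from 26 to 37 over the alternative settings. Ccnb2 was at 9.75, 10.16, 9.74 and 10.15, Aurkb at 9.57 ± 0.22 and Pcna at 11.04 ± 0.04. Among the matrix genes of nervous tissue 18 of 24 were above, with the lectican Ncan at 12.27 ± 0.10 and Acan, the aggrecan of mature perineuronal nets, not above at 5.61 ± 0.11. Metalloproteinases and inhibitors were above in 17 of 22 cases, with Timp3 at 12.20 ± 0.21 and Mmp13 not above at 4.84 ± 0.07.

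Across the genes the call went with CpG content of the promoter. Of the 14557 genes 11308 matched a RefSeq symbol with 1 promoter window of 300 bases. Among genes with 0 to 4 CpGs in the window 20.0% of 2789 were above background, rising through 37.5% of 1530 with 5 to 9 and 73.5% of 1165 with 10 to 14 to 92.2% of 1689 with 30 or more. Median GC content was 61.0% for genes above background and 49.3% for those not above. The motif TATAAA on either strand was in 6.85% of the windows of genes above, 22.0% of those not above and 14.2% of all 33469 windows. The genes above background were not alike between lists: the median window held 22.5 CpGs for mitosis and 19.0 for pan-neuronal genes but 6.0 for microglia, 6.0 for fibroblast and 3.0 for border macrophage genes. Probes share base composition with their genes, and the part of probe composition in these levels was not tested.

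**Figure D4:**
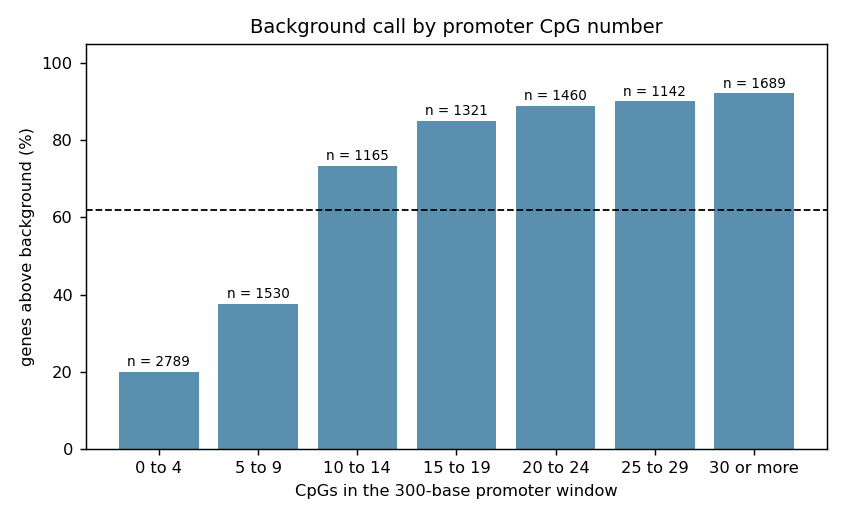
Percent of genes above background in the untreated culture by the number of CpGs in their 300-base promoter window, with the number of genes in each bin and the 61.9% of all genes as a dashed line. The share rises from 20.0% at 0 to 4 CpGs to 92.2% at 30 or more.

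The 4 arrays differed little in general and in a few gene groups more. Over the genes above background the median SD was 0.08, and 165 had an SD above 0.3. Agtr2, the type 2 angiotensin receptor, varied most at 9.63, 8.30, 8.94 and 7.00, a range of 6.16-fold. Col8a1, a collagen, was at 8.09, 9.39, 9.41 and 8.35, and Slc6a20a, a proline transporter, was at 7.36, 8.60, 8.61 and 7.40. In both, replicates 2 and 3 were high and replicates 1 and 4 low. Of the 20 most variable genes above background, 10 were lowest on replicate 1 and 9 on replicate 4, and they include the matrix genes Aspn, Postn, Lum and Mgp.

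Several lists, picked after their values were seen, deviated on certain arrays. Fibroblast genes above background had median deviations from their own means of -0.10, 0.17, 0.12 and -0.18, and microglia genes had -0.12, 0.02, 0.17 and -0.04. Of the 40 microglia genes 29 were highest on replicate 3, against 21.5% of all genes above background. Motile cilia and choroid plexus genes had -0.17, -0.07, -0.01 and 0.21, and 18 of 21 were highest on replicate 4, against 22.2% of all. Interferon-stimulated genes had -0.24, 0.13, 0.02 and 0.06, with 17 of 24 lowest on replicate 1 against 24.4% of all. Mitosis genes had -0.01, 0.13, -0.03 and -0.11, with 17 of 26 highest on replicate 2 against 20.5%. Reactive astrocyte genes had -0.11, 0.13, 0.09 and -0.12, whereas the list of astrocyte channels, transporters and enzymes, the pan-neuronal list and the mature oligodendrocyte, lineage factor and progenitor lists moved by at most 0.06 on any array. The lists that deviated thus did not all do so on the same arrays. The members of a list were measured on the same arrays and are not replicates, and unequal numbers of the cells and unequal RNA per cell cannot be told apart here.

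**Figure D5:**
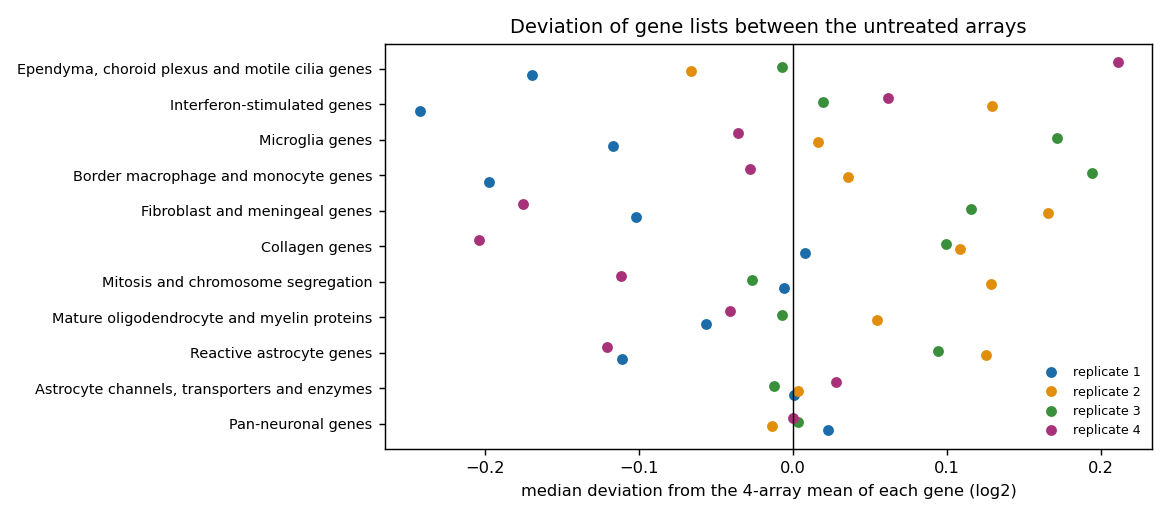
Median deviation of the genes above background of 11 lists from their own 4-array means, in log2 units, 1 point per array and list. Fibroblast genes are low on replicate 4, microglia genes high on replicate 3, motile cilia genes high on replicate 4 and interferon-stimulated genes low on replicate 1, while pan-neuronal genes lie near 0.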

How the data were processed

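The deposited table holds log2 values that the authors made from Affymetrix Rat Gene 2.1 ST arrays with GCRMA normalisation and summarised to transcript clusters with one-step Tukey biweight in Partek Genomics Suite (version 6.6). The genome build behind the clusters is not given in the sources used here. No detection p-value or count was used, so precision is limited by the 4 arrays. All other columns of the table belong to treated groups and were not used. Of 36685 clusters, 14824 had 1 gene symbol, 829 had several and 21032 had none. Where a gene had several clusters, the one with the highest Control mean stood for it, which gave 14557 genes with means and SDs computed in Python 3.11.15. There is 1 group, so no comparison between groups was tested; single arrays far from the other 3 were looked for with the Dixon criterion. Pairs of arrays correlated at 0.994 to 0.996 over all clusters, and no 2 arrays were identical. The background call was checked on simulated arrays.

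Members of 67 gene lists were matched by symbol or RefSeq synonym, 1678 of 2384 distinct genes having a measured cluster. Genes without a single-symbol cluster were not analysed here. The members and lists were chosen with earlier results of these data known. Genes named are the 6 markers, defining genes of the lists, the 6 members of each list with the highest mean and, where under 1/3 or over 2/3 of a list lay above background, up to 6 on the other side, all Hox genes, the 20 genes with the highest mean and the 20 above background with the highest SD. A further 19 genes are given with values outside this rule, chosen after their values were seen, as were others named without a value. Promoter windows came from RefSeq, and genes with more than 1 window were left out. Alternatives varied the threshold, the array rule, the cluster of a gene, the normalisation and the arrays used.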

Additional observations from a re-analysis of the deposited data

Results flagged for a closer look

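In 15 of the 179 genes and lists tested that the text gives values for, or names among the most variable genes, 1 array lay far from the other 3, which were close together. Chance alone sets an array apart in this way in about 1 in 20 groups of 4. The far array was replicate 1, 2 or 3 in 4 genes each and replicate 4 in 3. Differences between arrays were small in most of them. Replicate 1 was apart for Slc17a6 at 11.35 with the others at 11.22, for Adora2a at 5.35 with the others at 5.23 to 5.25, for Itgam at 5.69 with the others at 5.99 to 6.04, and for Mx1 at 7.15 with the others at 7.85 to 7.99. Replicate 2 was apart for Slc1a3 at 12.52 with the others at 12.61, for Chrnb2 at 10.52 with the others at 10.58 to 10.59, for Pdgfa at 9.60 with the others at 9.65 to 9.66, and for Nr3c1 at 9.55 with the others at 9.71 to 9.73. Replicate 3 was apart for Syp at 12.61 with the others at 12.58, for Sst at 11.77 with the others at 11.69 to 11.70, for Hgf at 9.84 with the others at 9.76 to 9.77, and for Sqle at 10.40 with the others at 10.47 to 10.49. Replicate 4 was apart for Ndrg2 at 13.25 with the others at 13.14 to 13.16, for Egr2 at 6.38 with the others at 6.09 to 6.11, and for Aspn, a small matrix proteoglycan, at 8.44 with the others at 9.63 to 9.79.

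Outside the genes described, 8609 of 21861 transcript clusters without a single gene symbol lay above background on all 4 arrays, which is 39.4%.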

How the results depend on the processing

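The number of genes above background was 8300 with the 99th percentile of the chemosensory receptors as threshold, 9251 with the 90th and 9677 with a fixed log2 value of 5. It lay between 8858 and 9039 when the mean of the arrays, the mean over a gene's clusters, quantile normalisation or subtraction of array medians was used, and between 8866 and 8969 when 1 array was left out. Distinct list members above background numbered 1176, and 1079 to 1294 over the alternatives. The median SD was 0.07 to 0.09. None of these moved by more than 1.5 times. Counts of single lists moved more in a few cases: with a fixed value of 5, lymphocyte and mast cell genes above rose from 2 to 5 and endothelial genes from 9 to 15, and with the 99th percentile collagen genes fell from 14 to 9. Skeletal muscle and liver genes, 0 otherwise, gave 1 with the mean of the arrays, with the 90th percentile or without Control replicate 3, and 2 with a fixed value of 5. Of 619 genes that the naming rule gives, 10 lost the call with the 99th percentile, among them Tmem119, Egr2, Hoxd4, Isg15 and Cd74. With the 90th percentile 39 gained it, among them Acan, En2, Klk6, Hoxa11, Cdc6, Cdt1, Pole2 and Grin2c. With a fixed value of 5 the call was gained by 60, which also include Fosb, Fosl1 and Nkx6-1. The mean over both clusters of Nefl was 10.46, against 12.46 for the cluster used, and both lie above background. No paired analysis was possible because the result is a description of 1 group and comes from no test.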
